A study of Camellia sinensis with 12 samples.

Results

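Rubisco fixes carbon dioxide in the chloroplast and is built from large and small chains, and rubisco activase is the protein that keeps it active. The levels described here are those of 2 nuclear genes of that system, the small chain gene MSTRG.12209 and the activase gene MSTRG.46674, of 52332 genes measured in withering tea leaves. MSTRG.12209 was chosen by its measured level, as the gene with the most counts at 0 h, and MSTRG.46674 was selected on a description naming rubisco activase, with its levels before withering and at 9 and 24 h already known. The levels against 0 h of the small chain gene, and every contrast of the activase gene, are therefore descriptions and carry no test. Leaves of plucked tea shoots (Camellia sinensis cv. Longjing43, a bud with its youngest leaves) were sequenced after 9, 15 and 24 h of withering at 25°C and, as the reference, at 0 h, with 3 libraries at each of the 4 times. The sample labels gave an illumination of 0 lux, whereas the methods of the study described withering under light. Unwithered leaves of 9, 15 or 24 h are not among the samples. Withering, the light or darkness it was done in, the hour of the day and the time since plucking therefore cannot be told apart. Whether the 3 libraries of a time were made from separate lots of leaves is not stated, so p-values measure only the spread among these libraries, which may be technical.

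In land plants the large chain is encoded in the plastid genome and the small chain by a family of nuclear genes, whose transcripts are among the most abundant of green leaves and depend on light. Rubisco activase is a nuclear-encoded ATPase that removes inhibitory sugar phosphates from the catalytic sites of rubisco, and in Arabidopsis its transcript level follows light and the circadian clock. Fixed carbon then passes through the Calvin cycle, while the oxygenase reaction of rubisco feeds photorespiration.

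The total count per library was between 64931031 and 118261728, and both genes were among the 26712 genes that passed the filter on low counts. The unit of level is CPM, a gene's counts scaled to a common library total after correction by TMM (trimmed mean of M-values). Counts were not divided by gene length, so levels of different genes are not compared as numbers of transcripts. In bulk leaf RNA, fewer cells of a type and less RNA per cell cannot be told apart. As a background for the numbers of genes called, 27.1% of all genes tested passed edgeR's quasi-likelihood test (adjusted p under 0.05) as higher and 26.8% as lower in 9 h leaves than in 0 h leaves. For 15 h leaves these shares were 30.3% and 29%, and for 24 h leaves 34.7% and 39.1%. At 15 h against 9 h, 19.8% were higher and 18.1% lower, and at 24 h against 15 h, 25.9% were higher and 30.8% lower.

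The small chain gene MSTRG.12209 (reference identifier CSS017875, described as ribulose bisphosphate carboxylase small chain 1A) lies on the minus strand of scaffold 1839, from 653372 to 656360, in the coordinates of the deposited table. Its level was 8626, 15151 and 14292 CPM in the 0 h libraries and 2764, 4771 and 4854 CPM in the 9 h libraries. It was 2191, 2469 and 2727 CPM at 15 h and 1158, 1033 and 1041 CPM at 24 h. The libraries of each time lay below all those of the time before, and the closest pair was the lowest 9 h library and the highest 15 h library. The means were 12690 ± 3545, 4129 ± 1183, 2463 ± 268 and 1077 ± 70.2 CPM at 0, 9, 15 and 24 h (SD, n = 3 each). Against 0 h the log2 fold changes were -1.62 at 9 h, -2.37 at 15 h and -3.56 at 24 h.

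At 0 h this single gene held 1.07 to 1.85% of all counts of a library and ranked first in each of the 3 libraries. The next gene at 0 h was MSTRG.46377, which has no description, with a mean of 3348 CPM, and after it came the activase gene MSTRG.18095 with 3325 CPM. The share of counts that MSTRG.12209 held averaged 0.439% at 9 h, 0.245% at 15 h and 0.0829% at 24 h. Its rank was 4 to 6 at 9 h, 13 to 14 at 15 h and 93 to 118 at 24 h. At 24 h a library still held between 54816 and 85218 counts of the gene. Among the 36 genes with at least 1000 CPM at 0 h, its log2 fold change was the 7th most negative at 9 h and the 5th most negative at both 15 and 24 h.

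The times after 0 h did not enter the choice of MSTRG.12209 and were tested. The gene was lower at 15 h than at 9 h, and the log2 fold change was -0.75 (SE 0.22, adjusted p = 0.0160 by edgeR's quasi-likelihood test, 3 libraries against 3). It was lower again at 24 h than at 15 h, by -1.19 on the log2 scale (SE 0.22, adjusted p = 0.000466, same test). The change between 9 and 15 h lost its call without replicate 2 or 3 of 9 h (log2 fold change -0.63 and -0.61, adjusted p = 0.0668 and 0.0697) and without replicate 1 of 15 h (-0.67, adjusted p = 0.0599). The change between 15 and 24 h kept its call whichever library was left out.

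**Figure D1:**
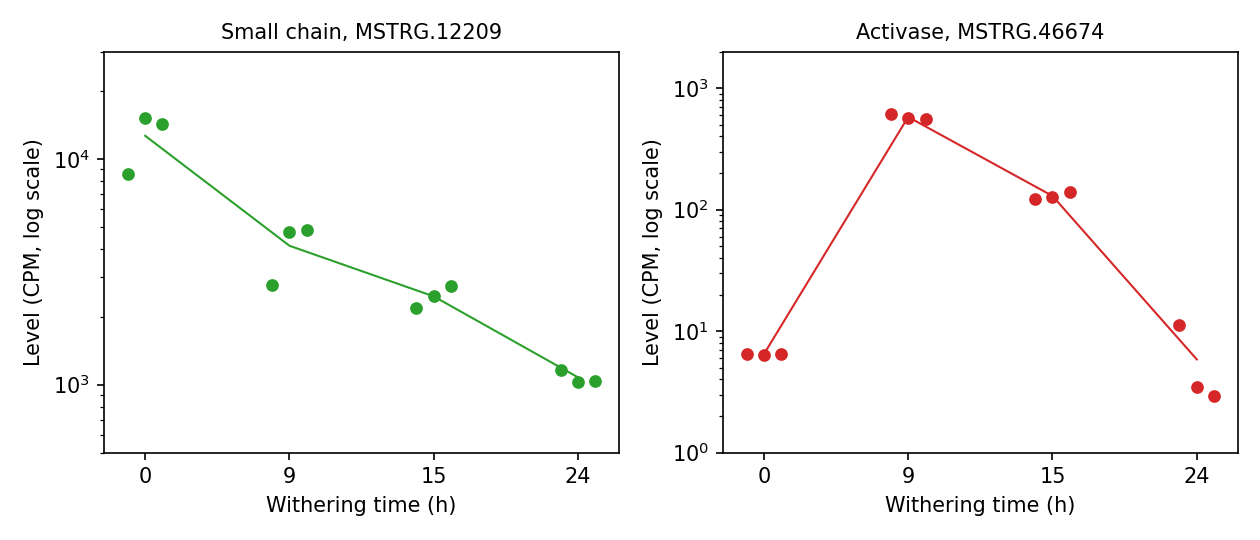
Levels of the small chain gene MSTRG.12209 (left) and the activase gene MSTRG.46674 (right) in CPM on log axes against withering time in hours. Each point is 1 library, points of a time are spread sideways in the order of their replicate numbers, and the line joins the means. The small chain gene was between 8626 and 15151 CPM at 0 h and between 1033 and 1158 CPM at 24 h, while the activase gene was between 557 and 612 CPM at 9 h and below 12 CPM at 0 and 24 h.

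The spread of MSTRG.12209 was uneven over the time course, with a coefficient of variation of 27.9, 28.7, 10.9 and 6.52% at the successive times. In the 36 genes of at least 1000 CPM at 0 h the median coefficient was 8.66%, and this gene had the 4th largest. At 9 h, when 44 genes were that abundant, the median was 5.75% and this gene had the 2nd largest. The low library was replicate 1 at both times, at 0.586 times the mean of the other libraries at 0 h and 0.574 times at 9 h. The median abundant gene stood at 0.945 and 1.0 times in the same libraries, and only 2 and 3 abundant genes, this one included, were below 0.7 times. Without replicate 1 of 0 h the log2 fold changes of MSTRG.12209 against 0 h were -1.83 at 9 h, -2.58 at 15 h and -3.78 at 24 h. These were the largest falls with any single library left out. The smallest were -1.4 at 9 h, without replicate 1 of 9 h, and -2.22 at 15 h and -3.41 at 24 h, without replicate 2 of 0 h.

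The table holds 5 other genes described as rubisco small chains, of which 4 passed the filter and CSS043092 had no count in any library. MSTRG.12209 carried 97.8% of the counts of all 6 small chain genes before withering and 95.2, 95.7 and 94.8% at the successive times, so their sum followed it. Near-identical copies of such a family can share reads, and how the counting treated them is not given in the sources used here. At each time 1 of the 4 tested genes was higher and 1 lower than at 0 h, beside the shares of all genes given above, and MSTRG.4404 and CSS012034, both below 2 CPM in every library, passed the test in no contrast.

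MSTRG.47433, on the minus strand of scaffold 817 from 26412 to 28580, was the next small chain gene by counts. Its level was 238, 287 and 286 CPM at 0 h, 201, 198 and 181 CPM at 9 h, 97.8, 103 and 122 CPM at 15 h, and 55.0, 32.5 and 42.8 CPM at 24 h. As in MSTRG.12209, no library of a later time reached the lowest library of the time before. It fell at 9 h against 0 h by 0.48 on the log2 scale (SE 0.16, adjusted p = 0.0182 by edgeR's quasi-likelihood test), a call that was lost without replicate 2 or 3 of 0 h or replicate 3 of 9 h (-0.44 in each case, adjusted p = 0.0604 to 0.0662). It fell at 15 h against 9 h by 0.85 (SE 0.16, adjusted p = 0.000833) and at 24 h against 15 h by 1.31 (SE 0.16, adjusted p = 1.30e-05).

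MSTRG.35818 ran the other way. This small chain gene, with the same description as MSTRG.12209, lies on the minus strand of scaffold 4608 from 440042 to 440648. Before withering its 3 libraries held 10, 0 and 10 counts. At 9 h they held 59, 65 and 61 counts, at 15 h 143, 204 and 172 counts, and 1041, 711 and 993 counts by 24 h. In CPM the level was at most 0.128 in 0 h leaves, 0.471 to 0.734 in 9 h leaves, 1.52 to 2.31 in 15 h leaves and 13.4 to 15.7 in 24 h leaves. Each time lay above all libraries of the time before. The log2 fold change at 24 h against 0 h was 7.54 (adjusted p = 1.73e-08 by edgeR's quasi-likelihood test), and the gene also rose at 15 h against 9 h (1.64, adjusted p = 0.00408) and at 24 h against 15 h (2.90, adjusted p = 2.19e-05). The size of the changes against 0 h rests on few counts, and at 24 h it was 6.88 without replicate 2 of 0 h, the library with 0 counts, and 8.04 without replicate 3 of 0 h, with the call kept whichever library was left out. It did not alter the course of the family sum, of which MSTRG.12209 still held 94.8% at 24 h.

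A further gene, MSTRG.35817, described as an unknown protein and named here after its values were seen, lies 725 bp from MSTRG.35818 on the opposite strand. Its level was 0.803, 0.953 and 0.765 CPM at 0 h, 4.19, 6.10 and 5.09 CPM at 9 h, 10.2, 12 and 13.8 CPM at 15 h, and 70.3, 66.8 and 67.8 CPM at 24 h. It rose at 24 h against 0 h by 6.34 on the log2 scale (SE 0.18, adjusted p = 5.44e-12 by edgeR's quasi-likelihood test). The nearest gene to MSTRG.12209, MSTRG.12211, carries the same description as MSTRG.35817 and lies 2661 bp away on the opposite strand, but had at most 0.32 CPM in any library. Both small chain genes described as 1A thus had a gene with this description beside them, and only that beside MSTRG.35818 was measured above 1 CPM. Whether the neighbours are alike in sequence was not tested. The strand setting of the counting is not given in the sources used here, and whether reads of MSTRG.35817 were counted for MSTRG.35818 was not tested.

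**Figure D2:**
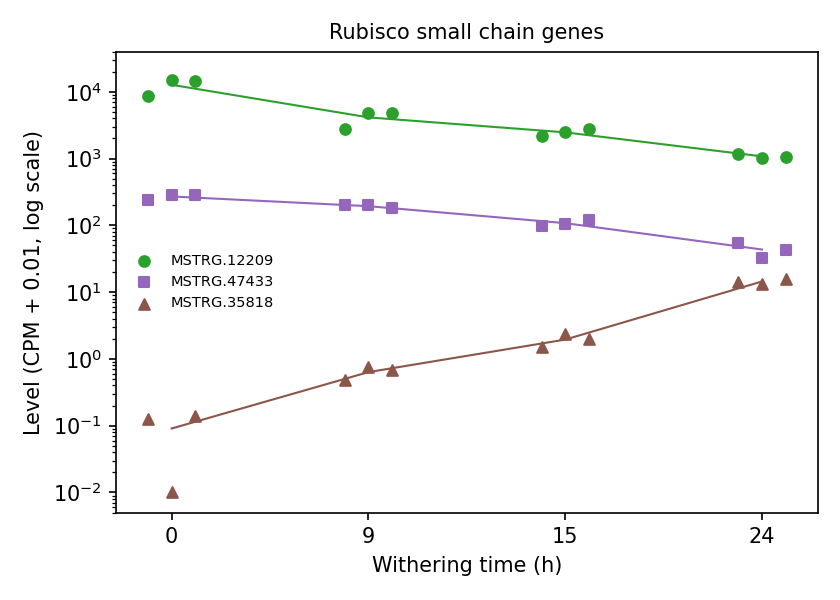
Levels of 3 rubisco small chain genes in CPM plus 0.01, on a log axis, against withering time in hours, with 1 point per library and a line through the means. MSTRG.12209 and MSTRG.47433 ran downward (means of 1077 and 43.4 CPM at 24 h, against 12690 and 270.1 CPM at 0 h), and MSTRG.35818 ran upward, to between 13.4 and 15.7 CPM at 24 h.

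The activase gene MSTRG.46674 (reference identifier CSS047135) lies on the plus strand of scaffold 786 from 297712 to 301470. It was low before withering, at 6.46, 6.40 and 6.50 CPM in the 0 h libraries, and was high at 9 h, at 612, 566 and 557 CPM. At 15 h it stood at 122, 128 and 139 CPM, and at 24 h at 11.2, 3.47 and 2.90 CPM. The gene thus formed a single peak, whose 9 and 15 h libraries overlapped neither each other nor those of 0 and 24 h, while the 24 h libraries lay on both sides of the 0 h libraries. In counts the peak was 50117 to 76709 per library at 9 h and 11300 to 12067 at 15 h, against 510 to 665 at 0 h. The means were 6.45 ± 0.0510, 578 ± 29.4, 129 ± 8.66 and 5.85 ± 4.62 CPM at 0, 9, 15 and 24 h (SD, n = 3 each).

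On the log2 scale MSTRG.46674 was higher than at 0 h by 6.49 at 9 h and by 4.33 at 15 h, and differed by -0.13 at 24 h. From one time to the next it changed by -2.16 at 15 h against 9 h and by -4.45 at 24 h against 15 h. Replicate 1 of 24 h was higher than the other 24 h libraries, and without it the values were -1.03 at 24 h against 0 h and -5.35 at 24 h against 15 h. By level the gene ranked 14800 to 14882 among all genes at 0 h, 113 to 129 at 9 h, 1458 to 1692 at 15 h and 11300 to 16215 at 24 h. Its rise at 9 h was the 124th largest of the 26712 genes tested.

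The size of the peak was set beside other genes as a description only, since the gene's 0, 9 and 24 h levels were known at its choice. With limits chosen after its values were seen, 479 genes had a log2 fold change of at least 4 at 9 h against 0 h. Of these, 24 also had one of -4 or less at 24 h against 15 h, MSTRG.46674 among them. The other 23 had means of at most 0.772 CPM at 9 h (MSTRG.17511, an unknown protein), so that 0 of them reached 10 CPM, beside the 578 CPM of MSTRG.46674. Genes that had already fallen back by 15 h could not meet the limit on 24 h against 15 h. The counts therefore do not show how rare a peak at 9 h was among abundant genes.

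The other activase genes behaved differently. MSTRG.18095 (plus strand of scaffold 2358, 627093 to 629804) had 3272, 3391 and 3311 CPM at 0 h, 819, 805 and 775 CPM at 9 h, 739, 773 and 839 CPM at 15 h, and 190, 177 and 165 CPM at 24 h. Its 9 and 15 h libraries overlapped, and those of 0 and 24 h stood clear above and below them. Against 0 h it fell by 2.06, 2.08 and 4.23 on the log2 scale at 9, 15 and 24 h (SE 0.07 to 0.08, adjusted p = 1.61e-10, 1.17e-10 and 2.56e-13 by edgeR's quasi-likelihood test). Between 9 and 15 h the log2 fold change of MSTRG.18095 was -0.03 (SE 0.07, adjusted p = 0.800), and at 24 h against 15 h it fell by 2.15 (SE 0.07, adjusted p = 3.12e-10).

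MSTRG.48754 (minus strand of scaffold 871, 666733 to 670240) took the same steps with smaller changes. It had 864, 972 and 938 CPM at 0 h, 459, 437 and 425 CPM at 9 h, 438, 460 and 495 CPM at 15 h, and 162, 115 and 127 CPM at 24 h. Against 0 h it fell by 1.07, 0.99 and 2.78 on the log2 scale at 9, 15 and 24 h (SE 0.11 to 0.12, adjusted p = 2.77e-06, 4.26e-06 and 1.52e-10 by edgeR's quasi-likelihood test). Between 9 and 15 h the log2 fold change was 0.08 (SE 0.11, adjusted p = 0.635), and at 24 h against 15 h it fell by 1.78 (SE 0.11, adjusted p = 3.17e-08). All contrasts against 0 h share the 0 h libraries.

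The make-up of the activase counts differed between the times. MSTRG.46674 held 0.152, 31.8, 9.39 and 1.75% of them at the 4 successive times. MSTRG.18095 held 78.1, 44.0, 56.9 and 56.0%, and MSTRG.48754 held 21.7, 24.2, 33.7 and 42.3%, at 0, 9, 15 and 24 h. These are shares of counts and not of transcripts, since no length correction was made. The ratio of MSTRG.18095 to MSTRG.48754, in which the chosen gene takes no part, was 3.6 ± 0.162, 1.82 ± 0.0300, 1.69 ± 0.00607 and 1.33 ± 0.183 at 0, 9, 15 and 24 h (SD, n = 3 each). The libraries of each time lay below those of the time before. The ratio was formed after the values were seen and carries no test.

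**Figure D3:**
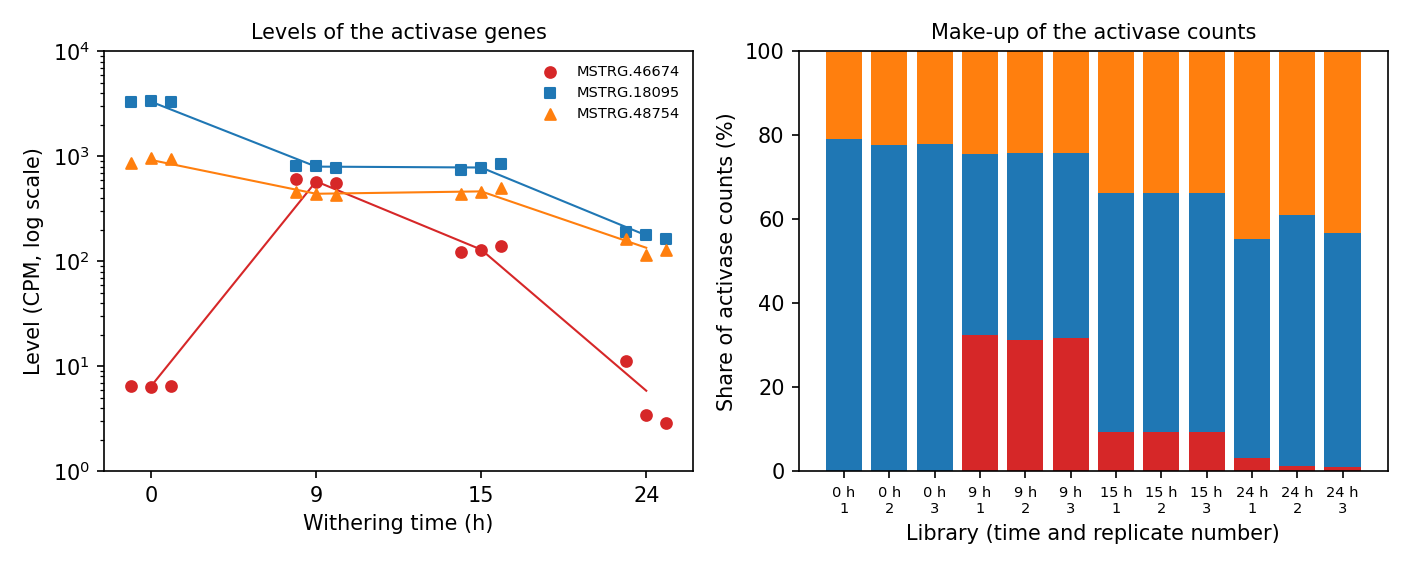
Left, levels of the 3 activase genes in CPM on a log axis against withering time in hours, with 1 point per library and a line through the means. Right, the percentage of all activase counts held by each gene in each of the 12 libraries, in the same colours. MSTRG.46674 (red) held 31.3 to 32.4% of activase counts in the 9 h libraries and 0.147 to 0.156% in the 0 h libraries.

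Summed over the 3 activase genes, the level was 4256 ± 113, 1819 ± 67.2, 1378 ± 88.6 and 317 ± 38.9 CPM at 0, 9, 15 and 24 h (SD, n = 3 each). The sum ran downward at every step in spite of the peak of MSTRG.46674, and its log2 fold change at 9 h against 0 h was -1.23. The ratio of summed activase to summed small chain levels was 0.347 ± 0.104, 0.450 ± 0.162, 0.537 ± 0.0262 and 0.279 ± 0.0145 at 0, 9, 15 and 24 h (SD, n = 3 each). Its libraries at 0 and 9 h overlapped, with replicate 1 the highest at both times. Those of 9 and 15 h overlapped too, as did those of 0 and 24 h, and the 15 and 24 h libraries did not overlap.

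Rows described as rubisco large chain numbered 5, of which 4 were tested and CSS021776 had no count in any library. The large chain carries the catalytic site. MSTRG.47674, on scaffold 8250, had 6.31, 9.75 and 8.47 CPM at 0 h, 5.09, 4.77 and 2.69 CPM at 9 h, 49.2, 63.4 and 55.8 CPM at 15 h, and 26.6, 12.9 and 23.3 CPM at 24 h. MSTRG.4924, on scaffold 1309, had 5.30, 5.41 and 4.25 CPM at 0 h, 3.49, 4.18 and 2.32 CPM at 9 h, 43.1, 40.7 and 47.4 CPM at 15 h, and 10.3, 10.2 and 12.8 CPM at 24 h. Both were highest at 15 h, when neither member was.

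All 4 tested large chain rows rose at 15 h against 9 h, where 19.8% of all genes did, with log2 fold changes of 3.28 to 3.88 (adjusted p = 2.12e-08 for MSTRG.4924 and 7.04e-07 for MSTRG.47674, edgeR's quasi-likelihood test). They also rose at 15 h against 0 h (4 of 4, beside 30.3% of all genes). At 24 h against 15 h, 3 of 4 fell, beside 30.8% of all genes. Rows described as photosystem II reaction center proteins or NADH dehydrogenase subunits, listed here as plastid and mitochondrial genome transcripts, were also high at 15 h. The descriptions name no genome, and the origin of these transcripts was not tested. Of 35 such rows, 10 had no count in any library and 21 were tested, of which 19 were higher at 15 h than at 9 h and 18 higher at 15 h than at 0 h. At 24 h against 15 h 4 of them rose and 11 fell, and their summed levels overlapped between the libraries of these times. Their summed level was 148 to 182 CPM at 0 h, 88.5 to 112 CPM at 9 h, 481 to 648 CPM at 15 h and 316 to 578 CPM at 24 h. Their part in the large chain values was not tested, and the labels do not give how messenger RNA was selected.

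**Figure D4:**
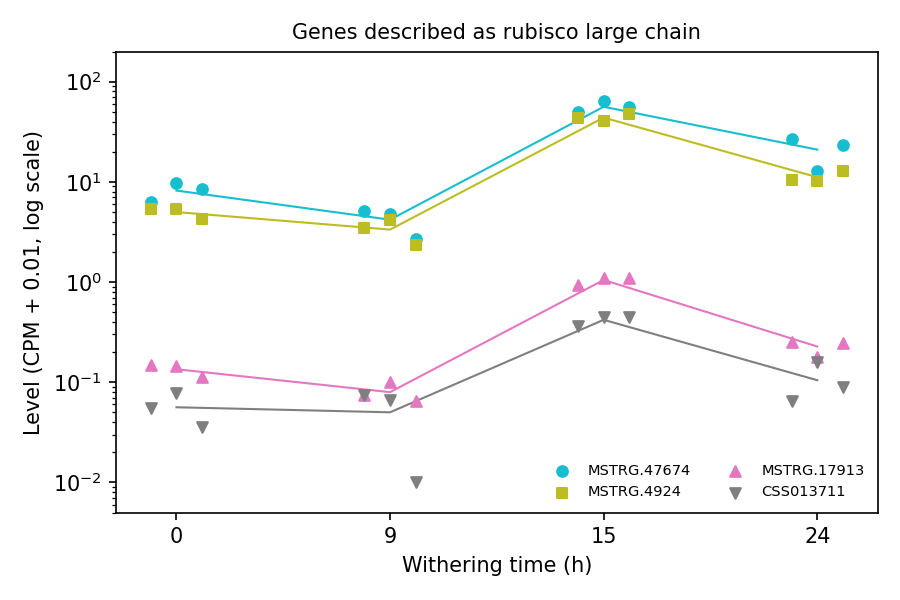
Levels of the 4 tested genes described as rubisco large chain, in CPM plus 0.01 on a log axis, against withering time in hours, with 1 point per library and a line through the means. All 4 were highest at 15 h, where MSTRG.47674 was between 49.2 and 63.4 CPM.

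Most genes matched for rubisco assembly and modification were lower in withered leaves. The match was by family words, and whether the methyltransferase and pterin dehydratase rows act on rubisco was not tested. Of 13 matched genes 12 were tested, and against 0 h 0 rose and 9 fell at 9 h, 1 rose and 7 fell at 15 h, and 2 rose and 9 fell at 24 h, beside 26.8, 29 and 39.1% of all genes that fell. The median log2 fold changes of the list were -1.04, -1.01 and -1.86, beside -0.02, -0.01 and -0.14 over all genes tested. At 15 h against 9 h 4 rose and 3 fell, and at 24 h against 15 h 3 rose and 8 fell, beside the shares of all genes given above.

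The chaperonins, which fold newly made large chains, were among the genes that fell. Chaperonin-60alpha (MSTRG.14376) averaged 535 ± 30.8, 160.1 ± 7.94, 150.1 ± 7.95 and 40.3 ± 9.58 CPM at 0, 9, 15 and 24 h, and its co-chaperonin, chaperonin 20 (MSTRG.6573), 281 ± 29.1, 97.3 ± 8.00, 131 ± 7.62 and 36.9 ± 9.16 CPM (SD, n = 3 each). At 24 h against 0 h their log2 fold changes were -3.73 (SE 0.14, adjusted p = 7.14e-11) and -2.93 (SE 0.15, adjusted p = 1.43e-09) in edgeR's quasi-likelihood test.

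The RbcX proteins, which hold the folded large chain for assembly, split at 24 h. MSTRG.46553 had 51.3, 59.5 and 65.5 CPM at 0 h and between 2.15 and 3.82 CPM in each later library, with log2 fold changes of -4.13, -4.70 and -4.26 at 9, 15 and 24 h against 0 h (adjusted p at most 1.16e-10, edgeR's quasi-likelihood test). No later library reached the lowest 0 h library. MSTRG.16416, named after its values were seen, had 191, 199 and 207 CPM at 0 h. At 9 h it had 115, 178 and 101 CPM, below all 0 h libraries, and at 15 h 167, 176 and 302 CPM. At 24 h it had 474, 512 and 526 CPM, and rose against 0 h by 1.34 on the log2 scale (SE 0.23, adjusted p = 0.000125, same test).

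The rubisco methyltransferase family takes its name from an enzyme that modifies the large chain in pea. MSTRG.28129 of this family averaged 32.1, 9.60, 3.62 and 1.59 CPM at 0, 9, 15 and 24 h, and its log2 fold change at 24 h against 0 h was -4.33 (SE 0.17, adjusted p = 8.07e-11, edgeR's quasi-likelihood test). All 4 tested members of the family fell at 24 h against 0 h, beside 39.1% of all genes. Of the 4 tested genes described as pterin dehydratase, a fold shared with a rubisco accumulation factor of maize, MSTRG.33469 was the only one that rose at 24 h against 0 h (log2 fold change 1.06, SE 0.11, adjusted p = 1.05e-06).

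**Figure D5:**
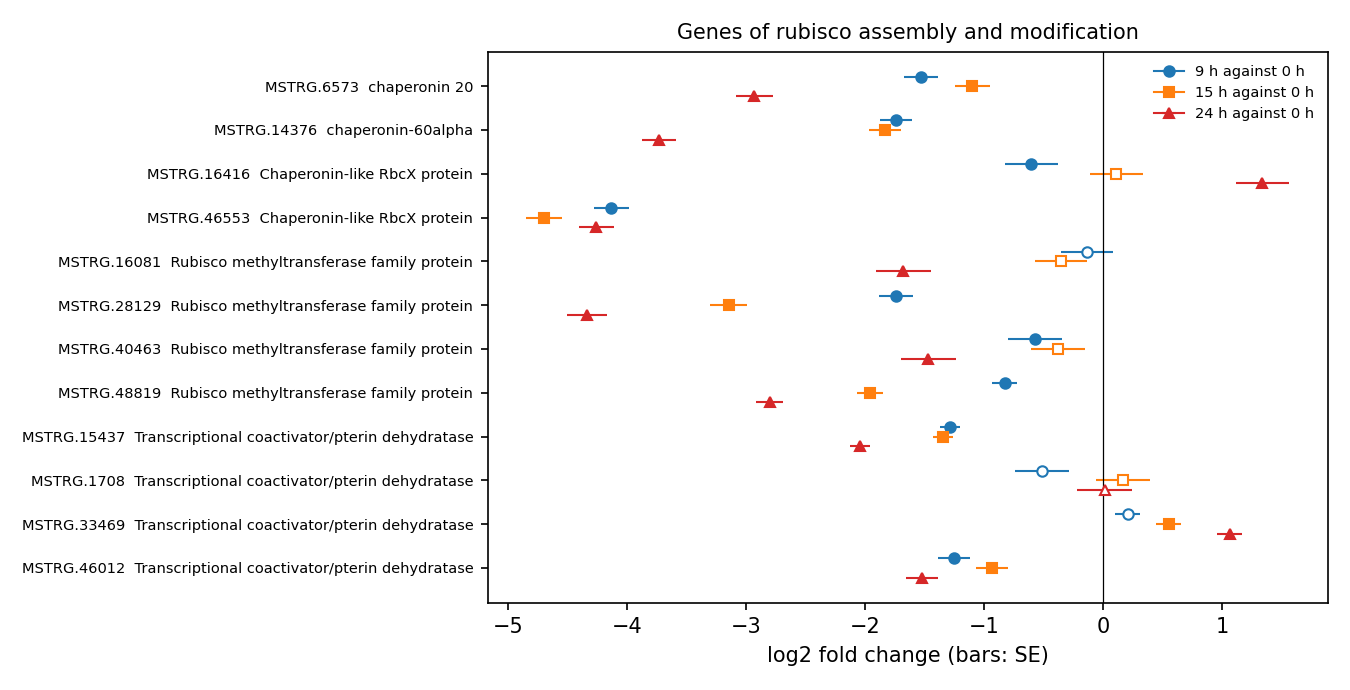
log2 fold changes of the 12 tested genes matched for rubisco assembly and modification, at 9, 15 and 24 h against 0 h. Bars are 1 SE, and symbols are filled where the adjusted p was under 0.05 and open elsewhere. Most values lie left of 0. The exceptions to the right at 24 h are MSTRG.16416 (1.34) and MSTRG.33469 (1.06), and MSTRG.1708 lies at 0 with an open symbol.

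For the Calvin cycle, the pathway that rubisco feeds, 42 genes matched the words of the list and 36 were tested. Among them were rows described only as transketolase family or phosphoribulokinase / uridine kinase family. Whether these encode enzymes of the cycle was not tested, so the counts are those of the list. Against 0 h 7 rose and 18 fell at 9 h, 7 rose and 21 fell at 15 h, and 6 rose and 22 fell at 24 h, beside 27.1 and 26.8%, 30.3 and 29%, and 34.7 and 39.1% of all genes. At 15 h against 9 h 3 rose and 11 fell, beside 19.8 and 18.1%, and at 24 h against 15 h 7 rose and 22 fell, beside 25.9 and 30.8%. The median log2 fold changes at 9, 15 and 24 h against 0 h were -0.39, -0.58 and -0.81. Without replicate 1 of 15 h, 6 in place of 11 genes fell at 15 h against 9 h.

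The 4 genes named from the list all fell and encode enzymes of carbon fixation and regeneration. High cyclic electron flow 1 (MSTRG.50432), a plastid fructose bisphosphatase in Arabidopsis, averaged 186 ± 9.21, 78.9 ± 2.93, 45.7 ± 4.64 and 6.49 ± 0.966 CPM at 0, 9, 15 and 24 h (SD, n = 3 each), a log2 fold change of -4.84 at 24 h against 0 h (SE 0.12, adjusted p = 1.87e-12, edgeR's quasi-likelihood test). Phosphoglycerate kinase 1 (MSTRG.3739), which uses ATP on the product of rubisco, fell by 4.33. The A subunit of glyceraldehyde 3-phosphate dehydrogenase (MSTRG.22107), the reducing step of the cycle, averaged 49.8 ± 10.3 CPM at 24 h, against 989 ± 64.7 CPM at 0 h, and fell by 4.31. Sedoheptulose-bisphosphatase (MSTRG.18730), an enzyme of the regenerating branch, fell by 3.96. At 24 h against 0 h MSTRG.12209, at -3.56 on the log2 scale, lay below the median of the Calvin cycle list (-0.81). Its fall was smaller than those of the 4 named genes, but these were picked for the largest changes of the list. The list ran from -6.79 to 2.49.

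Genes matched for photorespiration, which recovers the product of the oxygenase reaction, were split between rises and falls at 9 h. The match was by words that also take other isoforms of the same enzymes. Whether every row acts in photorespiration was not tested, so the counts are those of the list. Of 24 genes, all tested, 9 rose and 9 fell at 9 h, 8 rose and 11 fell at 15 h, and 5 rose and 14 fell at 24 h against 0 h, beside the same shares of all genes. At 15 h against 9 h 6 rose and 11 fell, and at 24 h against 15 h 4 rose and 14 fell, beside the shares of all genes given above. The median log2 fold changes against 0 h were -0.01, -0.0017 and -0.93 at 9, 15 and 24 h. Of the genes that fell, serine transhydroxymethyltransferase 1 (MSTRG.16059 and MSTRG.20675), a mitochondrial enzyme of the pathway, stood at 13.3 ± 3.85 and 4.11 ± 1.19 CPM at 24 h, against 352 ± 43.3 and 104.7 ± 8.63 CPM at 0 h, with log2 fold changes of -4.72 and -4.66. The H protein of glycine decarboxylase (MSTRG.14216) fell by 3.69 and phosphoglycolate phosphatase (MSTRG.29667), the first enzyme of the pathway, by 3.47. The number of genes that rose depended on the scaling and on single libraries. It was 4 in place of 8 at 15 h against 0 h without replicate 1 or 3 of 0 h or replicate 2 of 15 h, and 3 in place of 5 at 24 h against 0 h without replicate 1 of 0 h. At 15 h against 9 h it was 2 or 3 in place of 6 without any single library of 9 or 15 h, or without replicate 3 of 24 h.

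Genes with the most similar course were sought among 12638 described genes with a mean of at least 10 CPM, by Pearson's r of log2 CPM over the 12 libraries, which share the time course as their main variation. For MSTRG.12209 these were a sodium bile acid symporter family gene (MSTRG.40446, r = 0.987), low psii accumulation2 (MSTRG.2769, r = 0.986), an FKBP-like isomerase (MSTRG.41996, r = 0.982), a ribosomal protein described as PSRP-3/Ycf65 (MSTRG.28794, r = 0.982) and a heavy metal transport gene (MSTRG.7588, r = 0.982). Low psii accumulation2 is known in Arabidopsis for the assembly of photosystem II, and the Ycf65 protein belongs to the plastid ribosome. The size of the change differed among them. At 24 h against 0 h the log2 fold change was -2.87 in MSTRG.28794 and -4.09 in MSTRG.7588, beside -3.56 in MSTRG.12209. MSTRG.40446 averaged 32.2, 12.8, 9.93 and 5.17 CPM at 0, 9, 15 and 24 h.

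The genes most similar to MSTRG.46674 were a leucine-rich repeat receptor kinase (MSTRG.22349, r = 0.987), KNOTTED1-like homeobox gene 3 (MSTRG.148, r = 0.986), dicer-like 4 (MSTRG.33561, r = 0.986), a pentatricopeptide repeat gene (MSTRG.12698, r = 0.986) and a gene of unknown function (MSTRG.5842, r = 0.984). Of these, dicer-like 4, an enzyme that makes small RNAs, averaged 10.4, 50.5, 30.1 and 7.98 CPM at 0, 9, 15 and 24 h. With r on CPM without the log, 1 of the 5 genes for MSTRG.12209 and 0 of the 5 for MSTRG.46674 were again among the 5 highest.

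No other gene of the table overlapped either member. The nearest to MSTRG.46674 was CSS047133, a lectin protein kinase gene 9933 bp away, with means of 1.52, 1.24, 1.35 and 0.807 CPM at 0, 9, 15 and 24 h, which showed no peak at 9 h. On its other side CSS047131 lay 38269 bp away, and for MSTRG.12209 the gene on the other side was CLAVATA3/ESR-RELATED 27 (MSTRG.12199), 80691 bp away.

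Markers of green leaf cells were abundant at 0 h, and leaf is the labelled tissue. The 32 light-harvesting genes, 1 of them with no count in any library, summed to 8625 to 9690 CPM at 0 h, 1757 to 1832 CPM at 9 h, 2966 to 3856 CPM at 15 h and 834 to 1150 CPM at 24 h. Of the 28 tested, 0 rose and 25 fell at 9 h against 0 h, beside 27.1 and 26.8% of all genes. At 24 h against 0 h 3 rose and 25 fell, beside 34.7 and 39.1%. At 15 h against 9 h 15 rose and 1 fell, beside 19.8 and 18.1%. The light-harvesting sum was higher at 15 h than at 9 h in every library, which neither member was. Vascular markers (47 genes, 9 with no count) summed to 1465 to 1767 CPM at 24 h, against 994 to 1161 CPM at 0 h. However, of the 30 tested 13 rose and 12 fell, beside 34.7 and 39.1% of all genes, with a median log2 fold change of 0.10. Epidermis markers (5 genes) summed to 142.6 to 156 CPM at 0 h, 107 to 115 CPM at 9 h, 44.7 to 47.7 CPM at 15 h and 81.2 to 101.6 CPM at 24 h. At 15 h against 0 h 4 of them fell and 0 rose, beside 29 and 30.3% of all genes. At 24 h against 0 h 3 rose and 1 fell, beside 34.7 and 39.1%. Their median log2 fold change at 24 h was 0.54, although their sum was lower. The markers of dividing cells (16 genes, 4 with no count) summed to 11.6 to 14.1 CPM at 24 h and 18.4 to 19.1 CPM at 0 h. Of the 10 tested, 1 rose and 5 fell at 24 h against 0 h, beside 34.7 and 39.1% of all genes. The part of cell type make-up in the levels of the rubisco genes was not tested.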

How the data were processed

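The authors deposited 1 table of whole-number read counts per gene, not normalized, with scaffold coordinates and descriptions. Tools named in the submitters' processing notes are HISAT2 2.0.5, StringTie 1.3.1, Trimmomatic and FastQC 0.10.1. The build of the genome, the strand setting and the counting step were not given in the sources used here. Columns were tied to libraries by time and replicate number, and 0 columns stayed unmapped. Genes passing filterByExpr were tested in edgeR 4.0.16 (R 4.3.3) with TMM scaling, glmQLFit and glmQLFTest, time as a factor over all 12 libraries, and Benjamini-Hochberg adjustment over all genes tested, at a threshold of 0.05. SEs were taken as the fold change on the log2 scale over the root of the F statistic.

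Gene lists were matched by words in the short descriptions and can hold isoforms of other compartments and other enzymes of the same families. In photorespiration, 4 phosphoglycerate kinase genes that the words caught were dropped once the descriptions had been seen. The members and lists were chosen with earlier results of these data known. Named were both members, each tested small chain, large chain and activase gene, the 4 largest changes per other list with a mean of at least 10 CPM, the 5 most similar genes per member (prior count 2), and neighbouring genes. MSTRG.16416, MSTRG.33469 and MSTRG.35817 were named after their values were seen. The step was tested on simulated counts. Tried in place of these choices were a fit in DESeq2 1.42.0, size factors of that tool in the edgeR fit, scaling by library size alone, no filter, a minimum of 20 counts in each library, a fit of only the 2 times compared, a replicate block, leaving out each library, family sums, r on linear CPM, and CPM without TMM. Depth limited precision mainly in genes of few counts, such as CSS013711. No pair of libraries of a time differed by less than the sampling noise. Sequences of these genes were not analysed here.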

Additional observations from a re-analysis of the deposited data

How the results depend on the processing

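The tested falls of MSTRG.12209 kept their direction and call under the other tools, scalings, filters and samples in the fit. With each library left out in turn, the log2 fold change at 15 h against 9 h ran from -0.97 to -0.61 and its call was lost in 3 of 12 cases. With the replicate block, it was -0.71 at 15 h against 9 h (adjusted p = 0.00926 by edgeR's quasi-likelihood test) and -1.17 at 24 h against 15 h, and the block changed no call of the named small chain and activase genes tested in this way. Same-numbered libraries did not visibly deviate together (r of -0.087 to 0.06 over 18 pairs, beside -0.108 to 0.106 over 36 pairs of other numbers). With 3 libraries per time this cannot settle whether the numbers pair the samples.

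With library size alone, which shifted the median gene by -0.20, -0.29 and -0.67 at 9, 15 and 24 h against 0 h (log2), MSTRG.12209 was at -4.22 at 24 h against 0 h, and MSTRG.46674 at 6.28 at 9 h and 4.03 at 15 h against 0 h, -0.80 at 24 h against 0 h (-0.13 with TMM) and -2.25 at 15 h against 9 h. Genes that rose then numbered 3 and 3 of the Calvin cycle at 24 h against 0 h and against 15 h, 2 other rubisco genes at 24 h against 15 h (4 with TMM), and 4, 3, 2, 1 and 2 of photorespiration at 9, 15 and 24 h against 0 h, 15 h against 9 h and 24 h against 15 h. CPM without TMM gave 829 for MSTRG.12209 at 24 h, and 7.9 and 614 for MSTRG.46674 at 0 and 9 h.

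Summed over the activase genes in place of MSTRG.46674 alone, the log2 fold changes were -1.23, -1.63 and -3.75 at 9, 15 and 24 h against 0 h, -0.40 at 15 h against 9 h and -2.12 at 24 h against 15 h. The sign at 9 and 15 h was reversed because the sum includes the more abundant genes that fell (levels of 4260, 1820, 1380 and 317 CPM at 0, 9, 15 and 24 h). A minimum of 20 counts in each library, which drops MSTRG.35818, left 0 in place of 1 other rubisco genes that rose at 9 h and 3 in place of 6 at 15 h against 0 h.

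With each library left out, MSTRG.46674 ran from -1.03 to 0.19 at 24 h against 0 h and from -5.35 to -4.13 at 24 h against 15 h. Calvin cycle genes that fell at 15 h against 9 h numbered 6 to 12, other rubisco genes that rose at 9 h against 0 h 1 to 2, and photorespiration genes that rose 4 to 8, 3 to 7 and 2 to 5 at 15 h and 24 h against 0 h and 15 h against 9 h. The cause of these differences was not tested. With 3 libraries per time, single libraries decide such counts, and genes of few counts, such as MSTRG.35818 at 0 h, are the least precise.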
